A study of Mus musculus with 88 samples.

Results

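The 8 genes described here are established transcriptional targets of the coactivator YAP, and were taken by name from a table of 21942 loci measured in 26 RNA-seq libraries. All 8 names stood in the table, Cyr61 and Ctgf under these older symbols (now Ccn1 and Ccn2). The series holds 88 mouse samples. Its 62 bisulfite samples were not analysed here.

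The libraries came from embryonic stem cell (ESC) lines and mouse embryonic fibroblasts (MEFs) of F1 mice with a 129X1/SvJ parent. The other parent was C57BL6 in the B6 cross, where 16 ESC libraries, all at passage 3, covered a2i, t2i, 2i and serum, with 2 XX and 2 XY lines in each medium. Medium 2i holds an inhibitor of MEK and an inhibitor of GSK3, t2i is 2i with less MEK inhibitor, and a2i replaces the MEK inhibitor by an inhibitor of Src. The a2i lines were XX 4 and 18 and XY 1 and 3, the t2i lines XX 1 and 3 and XY 2 and 6, the 2i lines XX 3 and 4 and XY 2 and 6, and the serum lines XX 17 and 46 and XY 10 and 16. It was MSM/Ms in the MSM cross, which held 1 MEF library made from 2i line 15 (2i MEF), 2 libraries of MEFs at passage 1, and 1 library of 2i line 15 moved to serum (2i-S). That cross also held 4 ESC lines in 2i (XX 15 and 2, XY 20 and 23) and 2 in serum (labelled S, XX 8 and XY 12). Line 15 thus supplied 3 libraries. The 2i-S culture and the 2i MEF had more passages than the groups they are set against, so passage cannot be told apart from culture history. The labels of each MEF library give conflicting sexes, so the MEFs carry no sex here. Lines of a group were counted as replicates, and no label states separate embryos for them, so the p-values measure the spread between these lines. In the B6 cross the numbers XX 3, XY 2 and XY 6 recur in t2i and 2i, and XX 4 in a2i and 2i. Whether a shared number means the same line is not settled. Fits over several media treat all these libraries as independent.

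YAP and its relative TAZ (Wwtr1) carry no DNA-binding domain of their own and act on genes through the TEAD factors, which bind the sequence CATTCC. In the Hippo pathway the MST kinases activate the LATS kinases, which phosphorylate YAP and keep it in the cytoplasm. Spreading, stiff substrates and actin tension let YAP into the nucleus, and several of its targets feed back on the pathway itself. In the mouse embryo the pathway separates trophectoderm, where YAP is nuclear, from the inner cell mass from which ESCs are taken.

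By role, the genes fall into 4 kinds. Cyr61 (ENSMUSG00000028195.4, chr3:145646975-145649981) and Ctgf (ENSMUSG00000019997.11, chr10:24595441-24598683) encode secreted matrix-associated proteins that bind integrins, and Ankrd1 (ENSMUSG00000024803.8, chr19:36111964-36119844) encodes a muscle ankyrin-repeat protein. Axl (ENSMUSG00000002602.16, chr7:25757272-25788705) encodes a receptor tyrosine kinase for the ligand Gas6. Amotl1 (ENSMUSG00000013076.15, chr9:14541965-14615483) and Amotl2 (ENSMUSG00000032531.15, chr9:102716671-102733418) encode angiomotin-like scaffolds that bind YAP at cell junctions. Ajuba (ENSMUSG00000022178.10, chr14:54567468-54577661) encodes a LIM-domain protein that restrains LATS kinases, and Lats2 (ENSMUSG00000021959.15, chr14:57642076-57758388) encodes one of those kinases. Positions are the table's, on mm10. None of the 8 genes is X-linked.

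Promoter sequence is shown because the genes were grouped as targets of a DNA-bound complex. RefSeq promoters of build GRCm38.p6, 300 bases that run from 250 before to 50 after the start of the gene, were matched for 7 of the 8 genes (Ctgf had no entry). The 4 printed here are those of Cyr61, Ankrd1, Amotl2 and Ajuba, 5′ to 3′ on the strand of the gene, with each match to the TEAD core CATTCC, or its reverse complement GGAATG, in capitals. They lie at chr3:145649936-145650235 (minus strand), chr19:36119795-36120094 (minus strand), chr9:102717554-102717853 (plus strand) and chr14:54577612-54577911 (minus strand).
Cyr61: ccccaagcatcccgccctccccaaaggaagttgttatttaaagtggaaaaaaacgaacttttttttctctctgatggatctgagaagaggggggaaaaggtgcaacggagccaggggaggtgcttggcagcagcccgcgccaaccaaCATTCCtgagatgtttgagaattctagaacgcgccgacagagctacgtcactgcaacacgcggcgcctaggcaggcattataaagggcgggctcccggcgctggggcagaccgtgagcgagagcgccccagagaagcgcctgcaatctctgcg
Ankrd1: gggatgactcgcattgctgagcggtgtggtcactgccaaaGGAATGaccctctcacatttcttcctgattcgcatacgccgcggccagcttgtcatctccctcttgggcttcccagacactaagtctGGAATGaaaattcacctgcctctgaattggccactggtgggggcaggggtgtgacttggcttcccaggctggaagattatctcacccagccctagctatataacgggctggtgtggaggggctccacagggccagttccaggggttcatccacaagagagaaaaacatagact
Amotl2: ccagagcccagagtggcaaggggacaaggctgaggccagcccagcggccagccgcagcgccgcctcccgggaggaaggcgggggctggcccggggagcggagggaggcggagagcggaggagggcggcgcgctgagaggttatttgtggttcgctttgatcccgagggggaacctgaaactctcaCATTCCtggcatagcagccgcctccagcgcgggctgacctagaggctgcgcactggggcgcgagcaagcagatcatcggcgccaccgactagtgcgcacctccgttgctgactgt
Ajuba: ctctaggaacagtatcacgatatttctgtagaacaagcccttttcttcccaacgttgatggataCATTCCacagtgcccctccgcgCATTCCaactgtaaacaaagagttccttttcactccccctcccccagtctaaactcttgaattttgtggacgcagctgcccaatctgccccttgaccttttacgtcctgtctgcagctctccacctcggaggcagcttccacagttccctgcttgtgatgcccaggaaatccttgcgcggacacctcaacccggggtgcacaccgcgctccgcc
Counted from the start, the match lay at -103 in Cyr61, at -210 and -123 in Ankrd1, at -65 in Amotl2, and at -186 and -164 in Ajuba. The Axl window held 1 match at -233, the first of the 2 Lats2 windows held 1 at 4, and the second Lats2 window and the Amotl1 window held none. Among all 32851 promoters of that length in the table, 14.7% held at least 1 match and 1.33% held 2 or more. A match describes these letters only and is not evidence of binding.

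Values are RPKM (reads scaled to transcript length and to library size), which allow levels to be set side by side between genes. A library summed to 624274 to 934309 RPKM and listed 11234 to 12558 genes at 1 RPKM or more. Read totals are not part of the table and the depth in reads is unknown. Depth relative to 2i XX line 3, taken from the smallest step between low values, ran from 0.768 (2i XY line 6, B6 cross) to 1.85 (S XX line 8, MSM cross), and rests on a step shared by 6.23% to 10.2% of the low genes. The ESC libraries carried their ESC markers. The B6-cross serum libraries stood apart from the other B6 libraries in their fibroblast, trophectoderm and primitive endoderm markers. MEFs carry the primitive endoderm markers too, at 636 to 648 RPKM summed, against 106 to 301 RPKM in B6 serum. The 20 fibroblast markers summed to 4.23 to 15.7 RPKM in the a2i, t2i and 2i libraries, against 1032 to 1597 RPKM in B6 serum, and to 10433 to 12135 RPKM in the MEFs. The 2 serum libraries labelled XX also held Y-linked RNA, 2.65 to 3.45 RPKM summed over 4 genes, against 38.4 to 41.7 RPKM in the serum XY libraries, while XX lines in a2i, t2i and 2i held at most 0.124 RPKM. In the 10 MSM libraries all 183 rows of the Y chromosome are listed at 0, XY lines included, so Y-linked RNA gives no check of the sex labels there. Results of the 8 genes against B6 serum are given as deposited and with a fibroblast share subtracted. The subtracted values were not rescaled, so serum libraries keep the dilution that their share implies. Differences from serum after subtraction are therefore shifted upward. Remainders below 0 were set to 0, which works the other way for the genes it touches.

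**Figure D1:**
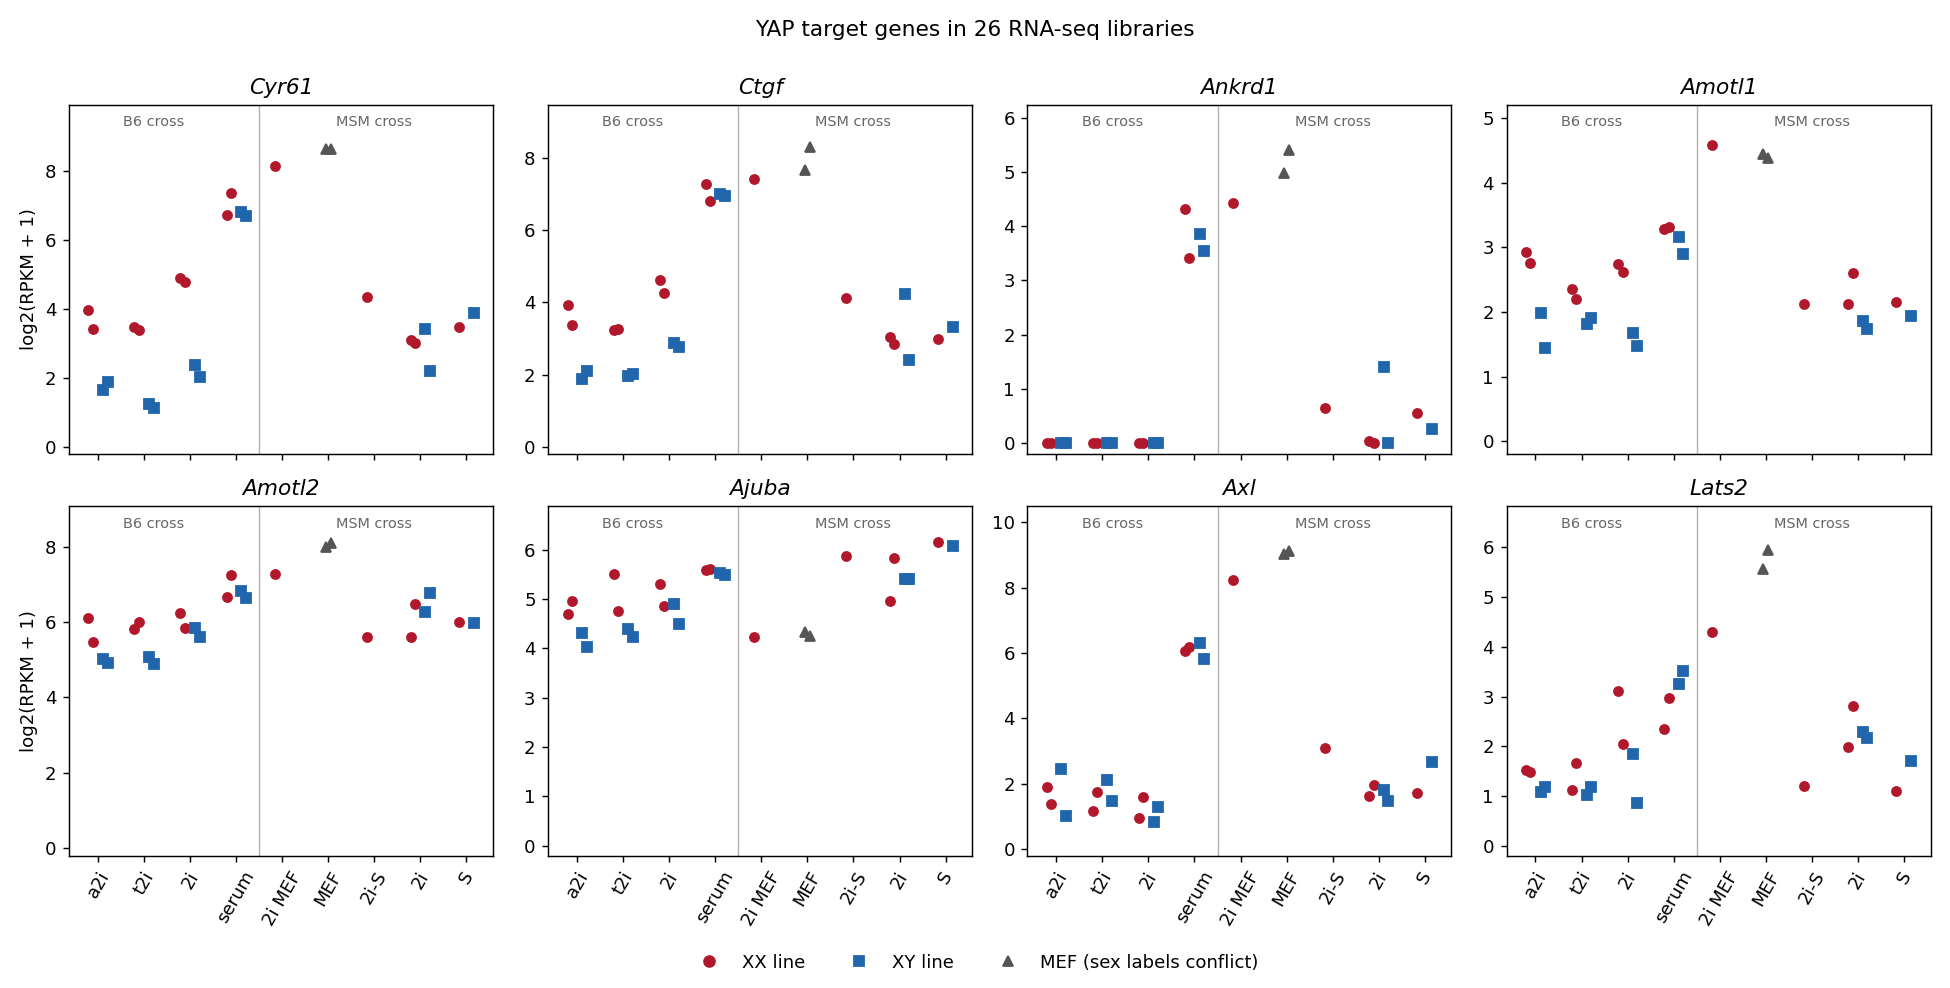
Level of each YAP target gene in the 26 libraries, as log2(RPKM + 1), by culture, with the B6 cross left of the grey line and the MSM cross right of it. Each point is 1 library (circles XX lines, squares XY lines, triangles MEFs). Circles lie above squares for Cyr61, Ctgf and Amotl1 in a2i, t2i and 2i of the B6 cross, and Ajuba is the only panel in which MEFs lie below the ESCs in 2i.

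XX lines of the B6 cross carried more RNA of most of these genes than XY lines in the 3 inhibitor media. Cyr61, Ctgf and Amotl1 were higher in every XX line than in any XY line, and Amotl2 and Ajuba were higher on average with overlap between the sexes. The share of all genes that separate the sexes without overlap was not counted. Tests here and below are limma fits of log2(RPKM + 1) over all genes of a cross, with Benjamini-Hochberg adjusted p-values called under 0.05. A difference is in log2 units with its standard error (SE). The added pseudocount of 1 RPKM makes these differences smaller than the true change for genes at low levels. Over a2i, t2i and 2i together, 6 of the 8 genes were called higher in XX lines, beside 21.6% of the 13150 genes tested. The mean over these 3 media was chosen after seeing the data, because serum differed in its fibroblast RNA. The mean over all 4 media, the planned comparison, called 5 higher, beside 21.4% of all genes, and also 5 with the fibroblast share subtracted.

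For the secreted proteins the separation was widest. Cyr61 stood in a2i at 14.6 (XX line 4) and 9.59 RPKM (XX line 18), against 2.15 and 2.67 RPKM in XY lines 1 and 3. In t2i it stood at 10.1 and 9.51 RPKM in XX lines 1 and 3, against 1.37 and 1.18 RPKM in XY lines 2 and 6. In 2i it reached 28.8 and 26.5 RPKM in XX lines 3 and 4, against 4.18 and 3.09 RPKM in XY lines 2 and 6. The lowest of the 6 XX values thus lay above the highest of the 6 XY values. The difference over the 3 media was 2.27 (SE 0.13, adjusted p = 5.28e-08), and per medium it was 1.92 in a2i, 2.25 in t2i and 2.64 in 2i, each called.

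Ctgf followed the same split at similar levels. In a2i it was at 14.3 and 9.45 RPKM in XX lines 4 and 18, against 2.68 and 3.31 RPKM in XY lines 1 and 3. In t2i it was at 8.49 and 8.63 RPKM in XX lines 1 and 3, against 2.87 and 3.09 RPKM in XY lines 2 and 6. In 2i it was at 23.5 and 18.2 RPKM in XX lines 3 and 4, against 6.40 and 5.86 RPKM in XY lines 2 and 6. No XX line overlapped an XY line in any of these media. The difference over the 3 media was 1.51 (SE 0.11, adjusted p = 5.57e-07), with 1.67 in a2i, 1.27 in t2i and 1.61 in 2i, each called. Ankrd1, the third of the classical reporters of YAP activity, was listed at 0 in all 12 of these libraries and gives no comparison.

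Among the YAP-binding scaffolds, Amotl1 was at 6.64 and 5.74 RPKM in the a2i XX lines 4 and 18, against 2.94 and 1.73 RPKM in XY lines 1 and 3. Its t2i values were 4.09 and 3.61 RPKM in XX lines 1 and 3, against 2.53 and 2.74 RPKM in XY lines 2 and 6. Its 2i values were 5.72 and 5.17 RPKM in XX lines 3 and 4, against 2.21 and 1.79 RPKM in XY lines 2 and 6. The sexes did not overlap, and the difference was 0.88 (SE 0.11, adjusted p = 2.66e-05). It was called in a2i (1.13) and 2i (1.11) and not in t2i (0.41, adjusted p = 0.139).

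Amotl2, the most abundant of the 8 in these media, ranged from 42.8 to 74.2 RPKM in the 6 XX libraries (median 59.6), against 28.4 to 56.7 RPKM in the 6 XY libraries (median 31.9). The overlap came from 2i, where XY lines 2 and 6 stood at 56.7 and 47.5 RPKM beside 74.2 and 56.3 RPKM in XX lines 3 and 4. Over the 3 media the difference was 0.69 (SE 0.13, adjusted p = 0.00101). It was called in a2i (0.82) and t2i (0.94) and not in 2i (0.31, adjusted p = 0.351). The a2i call was lost without XX line 4, XY line 1 or XY line 3 of a2i, and the t2i call without XX line 3 or XY line 6 of t2i.

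The regulators of LATS and LATS2 itself differed less. Ajuba ranged from 24.8 to 44.2 RPKM in XX lines (median 29.1), against 15.3 to 28.9 RPKM in XY lines (median 19.5). The groups overlapped through the 2i XY line 2 at 28.9 RPKM, and the difference was 0.62 (SE 0.13, adjusted p = 0.00212). Within a2i (0.65) and t2i (0.81) Ajuba was called, while in 2i it was not (0.39, adjusted p = 0.236). The a2i call sat near the threshold (adjusted p = 0.0479) and was lost without any 1 of 10 of the 16 libraries, after quantile normalization (0.58), and with no filter on low values. The t2i call was lost without XX line 1, XY line 2 or XY line 6 of t2i.

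Lats2 ranged from 1.17 to 7.69 RPKM in XX lines (median 2.02), against 0.821 to 2.60 RPKM in XY lines (median 1.19). Its highest value, 7.69 RPKM, came from 2i XX line 3. The difference of 0.63 (SE 0.21, adjusted p = 0.0282) was the weakest of the 6 calls. It was lost after quantile normalization (0.50) or with no filter on low values, and without 2i XX line 3 (0.45), 2i XY line 6 (0.47), t2i XX line 3 (0.54), a2i lines XX 4, XX 18 or XY 1, or t2i XY line 2. Within single media Lats2 was called in 2i alone (1.23, adjusted p = 0.0263), and that call was lost without 2i XX line 3 or 2i XY line 6, and with no filter on low values. Axl, the receptor, did not follow the sexes. It ranged from 0.944 to 2.77 RPKM in XX lines and from 0.760 to 4.43 RPKM in XY lines, with a difference of -0.06 (95% interval -0.58 to 0.46, adjusted p = 0.863).

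By medium, 5 of the 8 genes were called higher in XX lines in a2i (beside 16.8% of all genes), 4 in t2i (11%) and 4 in 2i (11.9%). Cyr61 and Ctgf were called in each of these media. The count for a2i was 3 without a2i XX line 4, XY line 1 or XY line 3, and that for t2i was 2 without t2i XY line 6. X-linked genes were higher in XX lines as a class, with a median difference of 0.84 over 474 X-linked genes, against -0.01 over 12660 autosomal genes. The median of the 8 genes was 0.66. Several other measures were compared between the sexes in these 12 libraries. Fibroblast markers summed to 10.5 to 15.7 RPKM in XX lines and 4.23 to 10.7 RPKM in XY lines, and 4 of the 20 were called higher. At the highest fibroblast share of these libraries, 0.0216% by the median of the markers, MEFs would supply 0.0854 RPKM of Cyr61 and 0.0558 RPKM of Ctgf. By the upper quartile the highest share was 0.257% (t2i XX line 1), or 1.02 RPKM of Cyr61 and 0.665 RPKM of Ctgf. ESC markers summed to 3034 to 3856 RPKM in XX lines and 2851 to 3183 RPKM in XY lines, with 4 of 8 called higher. Trophectoderm markers summed to 45.6 to 71.4 RPKM in XX lines and 59.8 to 71.7 RPKM in XY lines, with 1 of 7 called higher and 4 lower. Primitive endoderm markers summed to 14.9 to 25.6 RPKM in XX lines and 11.8 to 21.2 RPKM in XY lines, with 1 of 7 called higher. The counts of higher markers stand beside 21.6% of all genes called higher over these media. Relative depth was 0.946 to 1.14 in XX lines and 0.768 to 1.20 in XY lines. The part of the ESC, trophectoderm and primitive endoderm markers and of depth in the sex difference was not tested.

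**Figure D2:**
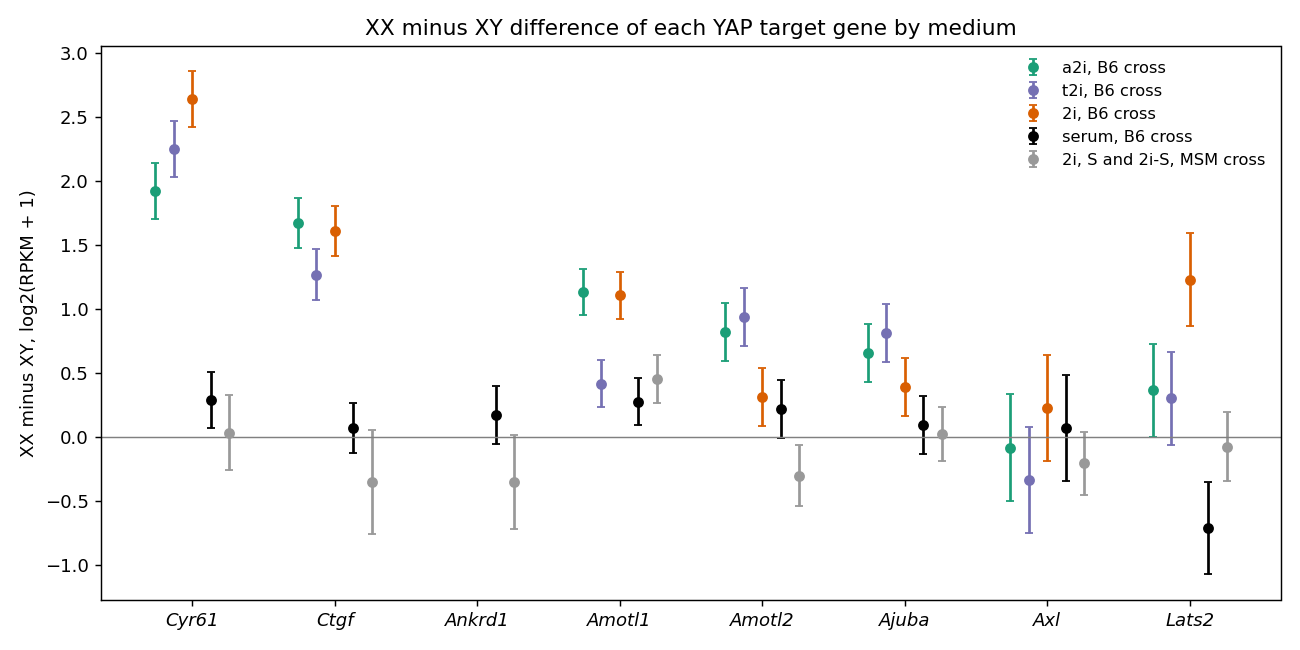
Difference between XX and XY lines of each YAP target gene, in log2(RPKM + 1), for each medium of the B6 cross and for the ESCs of the MSM cross. The 2i-S library adds nothing to the MSM estimate. Points are limma estimates and bars are 1 SE on each side. Cyr61 and Ctgf lie between 1.27 and 2.64 in a2i, t2i and 2i, and near 0 in B6 serum and in the MSM cross. Ankrd1 is drawn only for serum and the MSM cross, since it was listed at 0 elsewhere.

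In B6 serum no YAP target gene was called between the sexes, with 2 lines of each sex. Cyr61 was at 104.3 and 163.1 RPKM in XX lines 17 and 46, against 110.6 and 102.8 RPKM in XY lines 10 and 16. Ctgf was at 153.7 and 111.1 RPKM in the XX lines, against 126.7 and 122.8 RPKM in the XY lines. Both genes overlapped between the sexes. Amotl1 was at 8.77 and 9.00 RPKM in XX lines 17 and 46, against 7.92 and 6.49 RPKM in XY lines 10 and 16, and Ajuba at 47.3 and 47.7 RPKM in the XX lines, against 44.9 and 44.2 RPKM in the XY lines. Lats2 ran the other way, at 4.12 and 6.88 RPKM in the XX lines, against 8.54 and 10.4 RPKM in the XY lines. The differences were 0.29 for Cyr61 (95% interval -0.19 to 0.76) and 0.07 for Ctgf (-0.36 to 0.49), 0.27 for Amotl1 (-0.12 to 0.67), 0.09 for Ajuba (-0.40 to 0.58) and -0.71 for Lats2 (-1.50 to 0.07). None of the 8 genes was called by limma, beside 7.29% of all genes, with 2762 genes at an unadjusted p under 0.05. Without serum XX line 46 Ankrd1 was called (0.62, adjusted p = 0.0481), and with the fibroblast share subtracted Lats2 was called lower in XX lines (-1.94, adjusted p = 0.00428).

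The sex difference itself differed between 2i and serum for 3 genes, tested as the 2i against serum effect in XX lines minus that in XY lines. Cyr61 gave 2.35 (SE 0.31, adjusted p = 0.00112), Ctgf 1.54 (SE 0.28, adjusted p = 0.00566) and Lats2 1.94 (SE 0.51, adjusted p = 0.0358), so each was reduced less in 2i in XX lines than in XY lines. These 3 calls stand beside 3.15% of all genes called in that direction. With the fibroblast share subtracted Cyr61 gave 2.03 (adjusted p = 0.00383) and Ctgf 1.49 (adjusted p = 0.0196), and Lats2 gave 3.17 (adjusted p = 0.00280). The Lats2 call was lost without 2i XX line 3, 2i XY line 6 or serum XX line 17, XY line 10 or XY line 16, with values of 1.41 to 2.07, and also with a pseudocount of 0.1 or no filter on low values. No member was called for the t2i against 2i effect (beside 1.26% of all genes, 1923 at an unadjusted p under 0.05) or the a2i against 2i effect (4.93%, 2843) between the sexes.

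In the MSM cross the 2i levels of Cyr61 and Ctgf overlapped between the sexes. Cyr61 in 2i was at 7.64 and 7.13 RPKM in XX lines 15 and 2, against 9.75 and 3.64 RPKM in XY lines 20 and 23. Ctgf in 2i was at 7.30 and 6.16 RPKM in the XX lines, against 17.7 and 4.32 RPKM in the XY lines. XY line 20 was the highest and XY line 23 the lowest of the 4 lines for both genes. Among the ESCs of this cross none of the 8 genes was called between the sexes, beside 3.44% of all genes, with 2681 at an unadjusted p under 0.05. The 2i-S library has a mean of its own in the fit and adds nothing to the sex difference. That difference thus rests on the lines in 2i and S. The difference was 0.03 for Cyr61 (95% interval -0.64 to 0.70), -0.35 for Ctgf (-1.29 to 0.58) and 0.45 for Amotl1 (0.02 to 0.88, adjusted p = 0.236). Amotl1 did not overlap, at 3.35 to 5.09 RPKM in the 4 XX libraries, against 2.35 to 2.81 RPKM in the 3 XY libraries. Line 15 is counted there in both 2i and 2i-S. How many of all genes separate the sexes in this way was not counted. X-linked genes were nevertheless higher in XX lines of this cross, with a median of 0.77 over 506 genes.

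A fit of the 8 libraries in 2i set the sex difference of one cross against that of the other. Cross cannot be told apart in it from when the libraries were made or how they were processed. In MSM minus B6 terms it was -2.39 for Cyr61 (SE 0.49, adjusted p = 0.109) and -1.98 for Ctgf (SE 0.67, adjusted p = 0.312). Neither passed, beside 0.348% of all genes called and 1352 at an unadjusted p under 0.05. Without XY line 23 of the MSM cross both passed, at -3.00 (adjusted p = 0.0281) and -2.89 (adjusted p = 0.0322). Line 20 had a fibroblast share of 0.601%, against 0.0282% to 0.0462% in the other 3 lines in 2i, and the highest Ankrd1, 1.63 RPKM, against 0 to 0.0312 RPKM.

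Other genes of the pathway moved less than Cyr61 and Ctgf between the sexes of the B6 cross. YAP and TAZ RNA did not pass over a2i, t2i and 2i (Yap1 0.10, adjusted p = 0.371, and Wwtr1 0.15, adjusted p = 0.0991), nor did any of 7 coactivator and TEAD genes. Of 14 Hippo kinases and upstream regulators, 8 were called higher and 1 lower in XX lines, with a list median of 0.24, beside -0.004 over all genes. The largest changes were in Wtip (0.74), a relative of Ajuba, Wwc2 (0.64), a relative of the scaffold KIBRA, Frmd6 (0.62), a FERM-domain protein upstream of the kinases, and Wwc1 (-0.54), KIBRA itself. Of 15 tested genes of a wider YAP and TAZ signature, 4 were called higher and 1 lower, among them Ptpn14 (0.62), a phosphatase that binds YAP, and Nt5e (-0.78), an ectoenzyme. Of 8 serum response factor (SRF) targets of the actin cytoskeleton, 3 were called higher, led by Srf itself (0.38). These list counts stand beside 21.6% of all genes called higher. After quantile normalization 1 coactivator or TEAD gene was called lower, and the signature held 2 higher and 2 lower. The Hippo and SRF counts stayed as given.

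The genes whose levels ran most like Cyr61 over the 12 B6 libraries in a2i, t2i and 2i were named by Pearson's r on log2(RPKM + 1), among 5108 genes with a range of at least 1 log2 unit. These r values describe libraries that share media and sexes, and carry no test. Cyr61 ran closest to Tnfrsf10b and Ube2l6 (r = 0.983 each), and Ctgf to Tnfrsf10b and Chst3 (0.982 each). Cyr61 and Ctgf ran with each other at 0.975, each at rank 6 in the other's order. Amotl1 ran closest to the X-linked Atrx and to Ceacam1 (0.979 each), Amotl2 to Mme (0.954) and Fkbp6 (0.945), and Ajuba to Rcor2 (0.972) and Adcy9 (0.952). Lats2 ran closest to Mfap5 (0.909) and Pter (0.900), and Axl to Cyb5rl (0.892) and Stard6 (0.755). Axl, at 0.760 to 4.43 RPKM in these media, had an r of only -0.24 with Cyr61.

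The 3 inhibitor media were then compared with each other. Cyr61 and Ctgf were lower in t2i and in a2i than in 2i in both sexes, and the other genes did not pass. Averaged over the sexes, Cyr61 fell by 1.21 in t2i (SE 0.15, adjusted p = 7.91e-04) and Ctgf by 1.01 (SE 0.14, adjusted p = 0.00121). With same-numbered t2i and 2i lines taken as blocks, in a smaller fit, neither gene was called. In a2i Cyr61 fell by 0.80 (SE 0.15, adjusted p = 0.00462) and Ctgf by 0.81 (SE 0.14, adjusted p = 0.00219). These 2 of 8 calls stand beside 3.89% of all genes called lower in t2i and 5.85% called lower in a2i. The t2i and a2i comparisons share the 2i lines. Trophectoderm markers summed to 61.2 to 71.7 RPKM in a2i, against 48.1 to 61.5 RPKM in 2i, with 3 of 7 called higher and 1 lower, and 2 of 8 ESC markers were called higher in a2i. In t2i 1 trophectoderm marker was called higher and 1 lower, and 1 ESC marker higher. The part of these markers in the Cyr61 and Ctgf differences was not tested. As values above show, every 2i line of a sex stood above every t2i and a2i line of that sex for both genes.

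Below the threshold, Amotl2 was -0.44 in t2i (adjusted p = 0.114) and -0.50 in a2i (adjusted p = 0.0549). Lats2 was -0.73 in t2i (95% interval -1.28 to -0.17, adjusted p = 0.107) and -0.65 in a2i (-1.21 to -0.10, adjusted p = 0.116), Ajuba -0.17 and -0.40, and Axl 0.46 and 0.52. In a2i, Amotl2 passed without a2i XX line 4 (-0.67) or without either serum XX line, Lats2 without 2i XX line 4 (-0.92) or XY line 6 (-0.90), and Axl without a2i XY line 3 (0.88). In t2i, Lats2 passed without 2i XX line 4 (-0.99). Between a2i and t2i no member passed, beside 1% of all genes, with 1878 at an unadjusted p under 0.05. Cyr61 gave 0.42 there (95% interval 0.08 to 0.75, adjusted p = 0.233). Yap1 averaged 37.2 RPKM in t2i, 41.3 RPKM in a2i and 41.8 RPKM in 2i, and did not pass in either comparison with 2i, at -0.16 in t2i (adjusted p = 0.361) and -0.02 in a2i (adjusted p = 0.922). Wwtr1, TAZ, fell by 0.30 in t2i (adjusted p = 0.0446), and was -0.09 in a2i (adjusted p = 0.536). Of the wider signature, Gadd45a, a stress-induced gene, was higher in t2i (0.65) and a2i (0.81), and Nuak2, a kinase, was lower in t2i (-0.58). The Hippo list held 1 call in t2i, Frmd6 (-0.59), and 2 in a2i, Amot (0.68), the third angiomotin, and Mob1a (-0.36), a LATS cofactor. The repressor gene Vgll4 was lower in a2i (-0.57). No SRF target passed in either comparison.

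Against serum all 8 genes were lower in a2i, t2i and 2i. Ankrd1, listed at 0 in the 12 inhibitor libraries, stood at 18.8, 9.66, 13.4 and 10.6 RPKM in serum XX lines 17 and 46 and XY lines 10 and 16. Axl ranged from 0.760 to 4.43 RPKM in the inhibitor media, against 66.1, 71.5, 78.2 and 54.9 RPKM in those serum lines. Amotl1 ranged from 1.73 to 6.64 RPKM, against 8.77, 9.00, 7.92 and 6.49 RPKM in serum, and only a2i XX line 4 overlapped serum. Amotl2 ranged from 28.4 to 74.2 RPKM, against 99.99, 151.7, 112.6 and 99.3 RPKM in serum, without overlap. Ajuba ranged from 15.3 to 44.2 RPKM, against 47.3, 47.7, 44.9 and 44.2 RPKM in serum, and only t2i XX line 1 reached the lowest serum value. Lats2 ranged from 0.821 to 7.69 RPKM, against 4.12, 6.88, 8.54 and 10.4 RPKM in serum, with overlap through 2i XX line 3.

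Axl gave the largest fitted difference in 2i and in a2i, at -4.92 in 2i (SE 0.29, adjusted p = 3.26e-08), -4.46 in t2i and -4.40 in a2i. Cyr61 gave -4.59 in t2i and -4.17 in a2i, and Ctgf -4.38 and -4.18, each below its value in 2i of -3.37. Amotl1 gave -1.03, -1.10 and -0.89 in 2i, t2i and a2i, Amotl2 -0.97, -1.41 and -1.47, Ajuba -0.66, -0.83 and -1.06, and Lats2 -1.05, -1.78 and -1.71. All 8 calls in each medium stand beside 30.7% (2i), 28.5% (t2i) and 25% (a2i) of all genes called lower. Ankrd1, listed at 0 RPKM in the inhibitor media, passed the filter on low values only through serum, so its call could only be lower. Its zeros also add no spread to its test. The 3 comparisons share the serum lines. Scaling matters for the gene totals here: 2215 genes were higher and 4042 lower in 2i as deposited, against 3877 and 2764 after quantile normalization. The all-gene median was 0.08 with that scaling and -0.09 without it. In t2i the totals were 2010 higher and 3747 lower, against 3755 and 2517, and in a2i 1636 and 3282, against 3345 and 2234. All 8 genes stayed lower after quantile normalization in each medium.

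Most genes of the wider lists were also lower in 2i than in serum. Of 15 tested signature genes 11 were lower and none higher (median -1.30), led by Ccdc80 (-4.03), Igfbp3 (-2.71), F3 (-2.61) and Myof (-2.58), and all 8 SRF targets were lower (median -3.29), led by Acta2 (-8.05), Tagln (-7.83), Myl9 (-6.44) and Cnn1 (-3.87). Those SRF targets are smooth muscle and myofibroblast genes, and all 20 fibroblast markers were also lower. Of the Hippo list 6 of 14 were lower and none higher, led by Amot (-1.59) and Limd1 (-0.85). After quantile normalization the Hippo list held 1 higher and 3 lower, the signature 2 higher and 11 lower, and all 8 SRF targets stayed lower. After subtraction of the fibroblast share the Hippo list held 6 higher and 2 lower, the signature 2 higher and 7 lower of 14 tested (median -0.59), and 6 of 8 SRF targets were lower. The Hippo median was then 0.18, beside 0.17 for ESC markers (4 of 8 higher and 2 lower). Serum values were not rescaled after subtraction, which shifts such medians upward. Myof changed sign there (0.58, adjusted p = 0.00934), while F3 (0.62, adjusted p = 0.405), Acta2 (-3.43, adjusted p = 0.0586) and Amot (-0.51, adjusted p = 0.284) lost their calls. Yap1 fell by 0.39 (adjusted p = 0.00566), averaging 41.8 RPKM in 2i and 55.2 RPKM in serum. Tead3 fell by 1.50, Tead1 by 0.62 and Tead2 by 0.62, Tead4 rose by 0.66, and Wwtr1 was 0.20 (adjusted p = 0.0638). With the share subtracted 2 of the 7 coactivator and TEAD genes were higher and 2 lower. Yap1 was then -0.18 (adjusted p = 0.213) and Tead1 near 0 (adjusted p = 0.999), Tead2 (-0.57) and Tead3 (-0.82) stayed lower, and Tead4 (0.72) and Wwtr1 (0.71) were higher. Wwtr1 was also called higher after quantile normalization (0.39).

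Fibroblast RNA in B6 serum was set against the MEF level, since MEFs express these genes strongly. Cyr61 was at 394.6 and 396.3 RPKM in MEFs 2 and 4, Ctgf at 203.5 and 313.4 RPKM, and Axl at 526.4 and 555.9 RPKM. Ankrd1 was at 30.4 and 41.2 RPKM, Amotl1 at 20.8 and 19.9 RPKM, Amotl2 at 252.4 and 270.4 RPKM, and Lats2 at 46.6 and 61.0 RPKM. Ajuba alone was lower in MEFs than in every B6 serum line, at 19.1 and 18.1 RPKM. The fibroblast share of a serum library was taken as the median, over the 20 markers, of its RPKM as a percentage of the mean MEF RPKM. It was 8.34% in XX line 17, 13.2% in XX line 46, 11.1% in XY line 10 and 13.4% in XY line 16. In these bulk samples fewer fibroblasts and less RNA per fibroblast cannot be told apart.

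The 8 genes fell into 3 classes by that measure. Axl, at a mean of 12.5% of the MEF level (10.1% to 14.5% over the 4 libraries), and Lats2, at 13.9% (7.66% to 19.3%), stood within the range of the share itself or near it. Cyr61 stood at 30.4% (25.99% to 41.2%), Ankrd1 at 36.6% (27.0% to 52.6%), Amotl1 at 39.5% (31.9% to 44.2%), Amotl2 at 44.3% (38.0% to 58.0%) and Ctgf at 49.7% (43.0% to 59.5%). Ajuba stood at 247%, above its MEF level in every line. Of the 20 markers, 12 had a mean percentage below that of Axl and 13 below that of Lats2, while 19 lay below each gene of the middle class. The markers themselves ran from 5.17% (Postn, periostin) to 54.4% (Fap, a fibroblast protease), with Thy1, a surface glycoprotein, second at 29.4%. The MEFs are of the MSM cross, and whether fibroblasts in B6 serum cultures carry these RNAs at the MEF level was not tested.

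**Figure D3:**
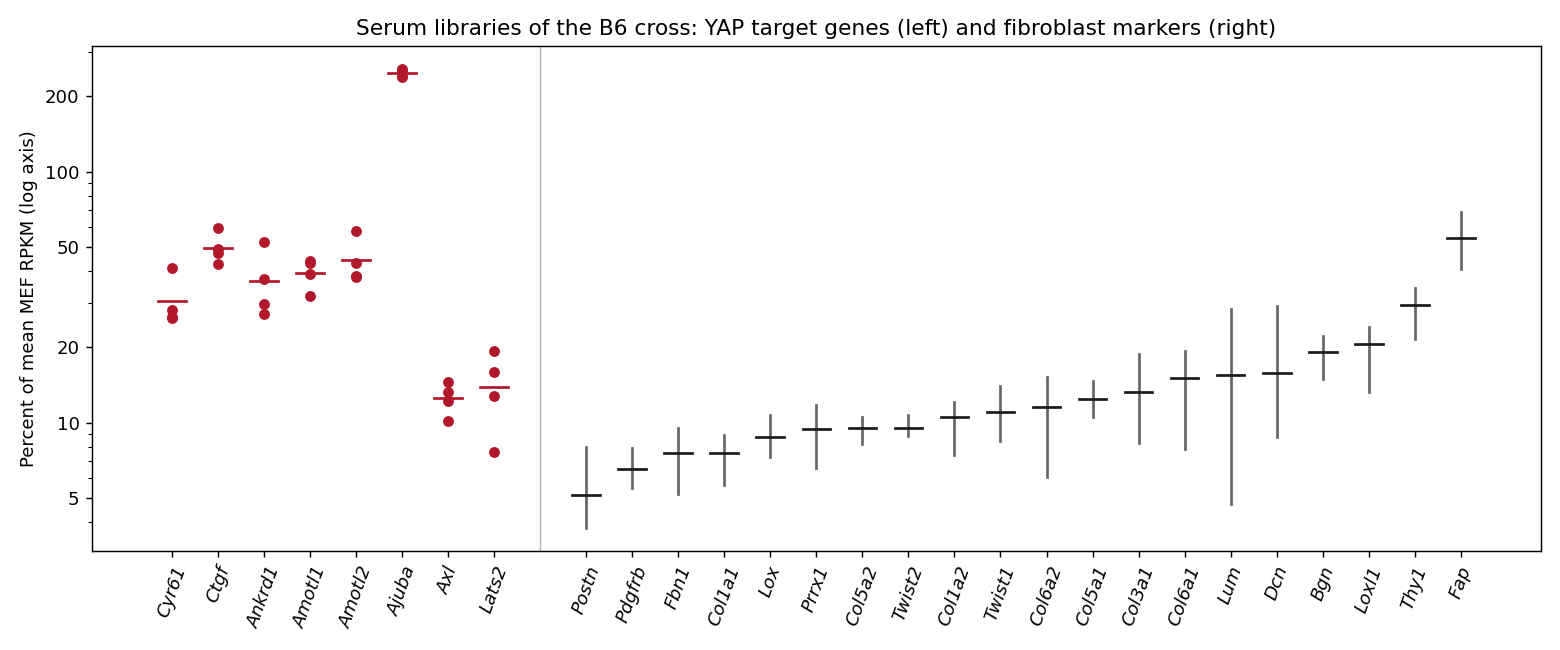
Level in the 4 B6 serum libraries as a percentage of the mean RPKM of the 2 MEF libraries (log axis). Left, each YAP target gene, with 1 point per library and a line at the mean; right, the 20 fibroblast markers, with their range and mean. Axl and Lats2 lie among the markers at 12.5% and 13.9%, Cyr61, Ankrd1, Amotl1, Amotl2 and Ctgf lie at 30.4% to 49.7%, and Ajuba lies at 247%.

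Subtracting the share of each library times the mean MEF level left 49.8 to 111 RPKM of Cyr61 in the serum lines, 77.0 to 132 RPKM of Ctgf, 4.94 to 15.9 RPKM of Ankrd1, 64.3 to 117 RPKM of Amotl2, 41.7 to 45.8 RPKM of Ajuba and 3.77 to 7.08 RPKM of Amotl1. It left 0 to 21.0 RPKM of Axl and 0 to 3.16 RPKM of Lats2, so at least 1 serum library held no more of these than its fibroblast share would supply. With the subtraction, Cyr61 in 2i against serum was -2.67 and Ctgf -2.98, both still called, as were Ankrd1, Amotl1 (-0.59), Amotl2 (-0.53) and Ajuba (-0.60). These 6 genes were called lower in t2i and a2i as well. Axl was no longer called, at -1.11 in 2i (adjusted p = 0.331), -0.64 in t2i (0.595) and -0.59 in a2i (0.635). Lats2 changed sign in 2i, at 0.996 (adjusted p = 0.00529), and was 0.27 in t2i (0.397) and 0.34 in a2i (0.298). Since the remainder was not rescaled, differences after subtraction are shifted upward. Remainders below 0 were set to 0, which works the other way and touched Axl and Lats2 in serum.

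The size of the subtraction mattered for 4 genes. With the lower quartile of the markers in place of the median, Axl was called in 2i (-3.15, adjusted p = 1.07e-04) and Lats2 was 0.09 (0.799), with -0.63 in t2i (0.0756) and -0.56 in a2i (0.121). With the upper quartile, Cyr61 (-2.12), Ctgf (-2.79) and Ajuba remained lower in 2i and Lats2 was 1.71 higher. There Amotl1 was -0.30 (adjusted p = 0.231) and Amotl2 -0.26 (adjusted p = 0.295), and both were no longer called. Amotl1 lost its call at that setting in t2i (-0.37) and a2i (-0.16) as well. In all, 5 of the 8 genes were called in 2i at the upper quartile, 1 of them higher. Trophectoderm markers (45.6 to 71.7 RPKM summed in the inhibitor media, against 97.0 to 206 RPKM in serum) and primitive endoderm markers (11.8 to 25.6 RPKM in the inhibitor media, against 106 to 301 RPKM in serum) were also less abundant in the inhibitor media, and their part in the remainder was not tested. MEFs summed to 13.8 to 41.3 RPKM on the trophectoderm list and 636 to 648 RPKM on the primitive endoderm list.

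**Figure D4:**
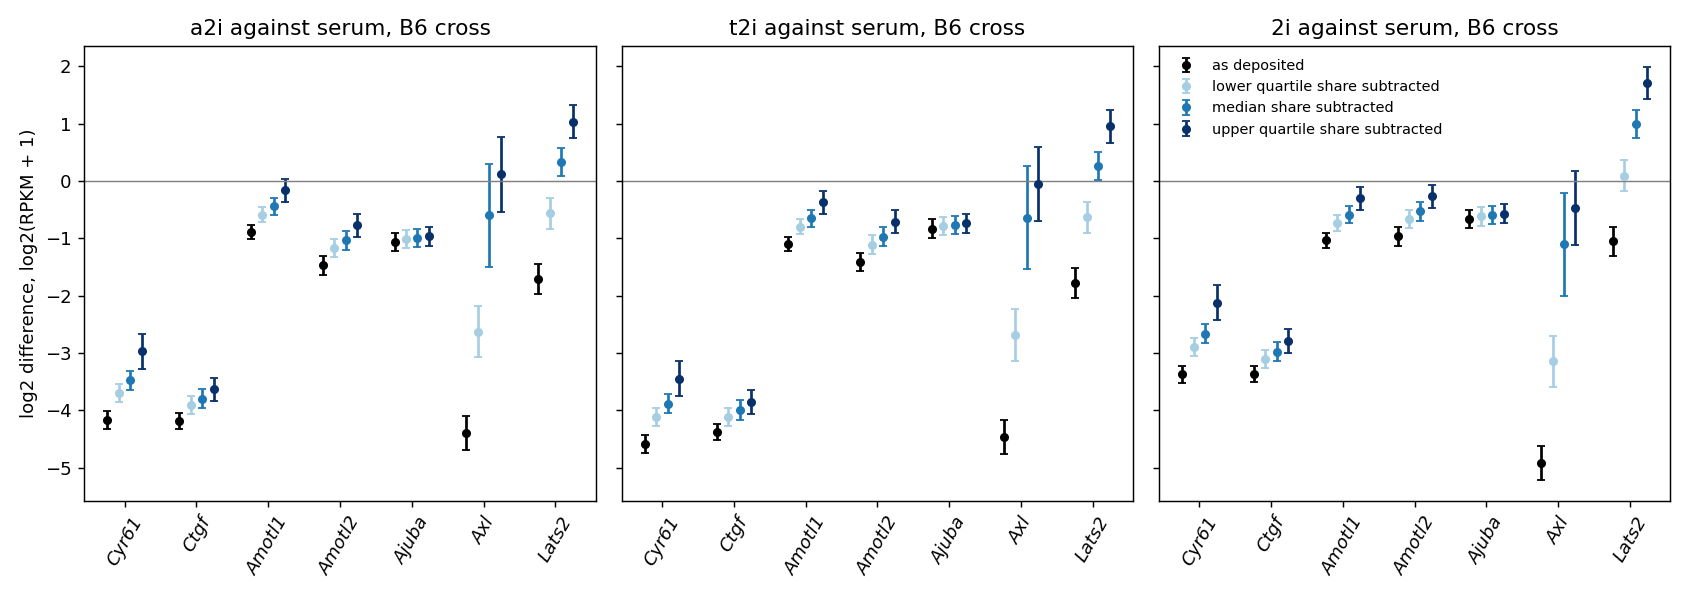
Difference of a2i, t2i and 2i from serum for each gene, in log2(RPKM + 1), as deposited and after subtracting the lower quartile, median and upper quartile fibroblast share. Points are limma estimates and bars are 1 SE on each side. Cyr61 and Ctgf stay below -2 at every setting, Axl moves toward 0, and Lats2 crosses 0. Ankrd1 is left out, since it was listed at 0 in these media.

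In the MSM cross, whose serum lines held a smaller fibroblast share, none of the 8 genes was called between 2i and serum. Cyr61 ranged from 3.64 to 9.75 RPKM in the 4 2i lines, against 10.2 and 13.7 RPKM in S lines XX 8 and XY 12. Ctgf ranged from 4.32 to 17.7 RPKM in 2i, against 6.99 and 8.96 RPKM in S. Axl was at 1.75 to 2.93 RPKM in 2i, against 2.26 and 5.30 RPKM in S, and Ankrd1 at 0 to 1.63 RPKM, against 0.463 and 0.196 RPKM. Ajuba was at 30.1 to 56.2 RPKM in 2i, against 69.9 and 66.2 RPKM in S, and Lats2 at 2.95 to 6.01 RPKM in 2i, against 1.15 and 2.25 RPKM in S. Cyr61 and Ajuba were lower, and Lats2 higher, in each 2i line than in either S line, while Ctgf, Axl and Ankrd1 overlapped. With so few lines such separation carries no test, and its share over all genes was not counted. The limma count of 0 stands beside 17% of all genes, with 4440 at an unadjusted p under 0.05. Cyr61 gave -0.74 (95% interval -1.45 to -0.03, adjusted p = 0.138), Ajuba -0.71 (-1.22 to -0.20, adjusted p = 0.0643), Lats2 0.90 (0.25 to 1.56, adjusted p = 0.0661) and Ctgf -0.02 (-1.02 to 0.97). Ajuba passed without 2i XX line 15 (-0.52) or 2i XX line 2 (-0.89). Fibroblast shares were 0.0282% to 0.601% in 2i and 0.598% and 1.85% in S, and 9 of the 20 fibroblast markers were called lower in 2i. With the share subtracted Lats2 was called higher in 2i (1.25, adjusted p = 0.0184). Of the coactivator list Tead4 (1.64), Vgll4 (1.10) and Wwtr1 (0.73) were higher in 2i, where Vgll4 encodes a repressor that competes with YAP for TEAD factors.

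The 2i against serum effect differed between the crosses for most members. Cross cannot be told apart here from when the libraries were made or how they were processed. In MSM minus B6 terms Ctgf gave 3.35 (SE 0.57, adjusted p = 0.00262), Axl 4.46 (SE 0.36, adjusted p = 1.72e-05), Cyr61 2.63 (SE 0.64, adjusted p = 0.0200), Amotl2 1.26 (SE 0.32, adjusted p = 0.0238) and Amotl1 1.07 (SE 0.29, adjusted p = 0.0343). Ankrd1 was called too (adjusted p = 2.54e-04), with no fold given. Listed at 0 in the B6 2i lines, it passed the filter on low values only through B6 serum. Its direction was thus set in advance, here and after subtraction. These 6 calls stand beside 9.47% of all genes called in that direction. Gene totals were 1263 higher and 281 lower as deposited, against 693 and 505 after quantile normalization, which left 5 of the 8 called. With the fibroblast share subtracted 3 were called, Ankrd1, Ctgf (3.53, adjusted p = 0.00539) and Cyr61 (2.48, adjusted p = 0.0233), while Axl was not (2.30, adjusted p = 0.337). The Cyr61 call was lost without S XX line 8 (2.31, adjusted p = 0.109) or S XY line 12 (2.95, adjusted p = 0.0662), and the Amotl2 call without S XY line 12 (1.01). Amotl1 lost its call without any 1 of 8 of the 14 libraries, and under quantile normalization, no filter on low values, or subtraction. Lats2 (1.96, adjusted p = 0.0639) passed without B6 2i XX line 3 (2.37) or B6 serum XX line 17 (2.28), and Ajuba was at -0.05.

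Within 2i itself every YAP target gene overlapped between the crosses. Here too cross cannot be told apart from when the libraries were made or how they were processed. Cyr61 averaged 7.04 ± 2.53 RPKM in MSM 2i lines and 15.6 ± 13.9 RPKM in B6 2i lines (SD, n = 4 each), with a difference of -0.58 (SE 0.24, adjusted p = 0.129). None of the 7 genes tested passed, beside 20.3% of all genes, with 4330 at an unadjusted p under 0.05. Without MSM XY line 20 Cyr61 (-0.88) and Ctgf (-0.96) were called lower in the MSM cross, and without XX line 15 Amotl2 (0.62) and Ajuba (0.73) were called higher. With the fibroblast share subtracted Cyr61 was called lower in the MSM cross (-0.69, adjusted p = 0.0443).

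In the 2i line moved to serum, Cyr61, Ctgf and Axl stood above its parent culture and both S lines of its cross, and below the B6 serum lines. S lines XX 8 and XY 12 held 10.2 and 13.7 RPKM of Cyr61 and 6.99 and 8.96 RPKM of Ctgf. For Axl they held 2.26 and 5.30 RPKM. Ctgf in 2i-S lay below 2i XY line 20 of the same cross (17.7 RPKM). In the 2i-S library Cyr61 was at 19.3 RPKM, against 7.64 RPKM in its parent 2i XX line 15, and Ctgf at 16.3 RPKM, against 7.30 RPKM. Axl was at 7.58 RPKM, against 2.09 RPKM, and Lats2 at 1.28 RPKM, against 2.95 RPKM. There is 1 such library, which was assumed to vary like the other groups. Against the 4 2i lines the differences were 1.38 for Cyr61, 1.16 for Ctgf, 1.49 for Axl and -1.08 for Lats2. Those lines include the parent, so the fit treats both libraries of line 15 as independent. Ajuba was 0.47 against the 4 lines and 0.92 against the parent alone, and Amotl2 -0.53 and -0.0145. No member passed, beside 1.22% of all genes, with 2211 at an unadjusted p under 0.05. The library held a fibroblast share of 1.50%, and with that share subtracted Axl was -1.54 (adjusted p = 0.208). Cyr61 passed (1.28) when 2i XY line 23 was left out.

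MEFs differed from 2i lines at every one of the genes. Cyr61 was 5.69 higher (SE 0.31, adjusted p = 1.89e-06), Ctgf 4.85, Ankrd1 4.83, Axl 7.36, Lats2 3.46, Amotl1 2.33 and Amotl2 1.75, and Ajuba was lower by the fitted -1.11 (SE 0.22, adjusted p = 0.00223). The 7 higher genes stand beside 29.9% of all genes called higher and Ajuba beside 41.2% called lower. Ankrd1 passed the filter on low values only through the fibroblast libraries, so its call could only be higher. Of 15 signature genes 11 were higher and none lower, and all 8 SRF targets were higher. Among the coactivators Tead3 (3.09), Tead1 (2.21) and Wwtr1 (1.25) were higher and Tead4 (-2.09) lower in MEFs. The 2i MEF, a fibroblast library made from line 15, was at 279.7 RPKM for Cyr61, 169.9 RPKM for Ctgf, 20.4 RPKM for Ankrd1, 299.4 RPKM for Axl and 18.6 RPKM for Lats2. Those values lie below both MEF libraries, while Amotl1, at 22.9 RPKM, lies above them. None of the 8 genes was called against the MEFs, beside 0.454% of all genes, with 1494 at an unadjusted p under 0.05, and the largest difference was that of Lats2 (-1.47, 95% interval -2.40 to -0.54, adjusted p = 0.208).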

How the data were processed

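The deposited values are gene-level RPKM from stranded mRNA libraries, per the labels' protocols. The submitters' processing notes name mm10, Cufflinks 2.2.1, Bowtie2 2.2.5, TopHat2 2.1.0 and cutadapt 1.9.1. No annotation release is given in the labels used here.

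The 8 genes and all lists were chosen with earlier results of these data known. Values were taken to log2 after adding 1 RPKM. A gene entered a fit if 2 or more of its libraries had 1 RPKM or more. Fits used limma 3.58.1 (lmFit, contrasts.fit, eBayes with trend) in R 4.3.3 and were tested on simulated data. The B6 fit held a mean per medium and sex (16 libraries, 8 residual degrees of freedom), and the MSM fit a mean per culture and an XX term (10 libraries, 4). Crosses were compared in fits of 14 and 8 libraries. Calls are Benjamini-Hochberg adjusted p under 0.05 over 12339 to 13443 genes. Where 1 side was listed at 0 no fold is given. All 8 genes were named, with up to 4 called genes of largest change per list and comparison, and 2 most alike genes per member. Alternatives were pseudocounts of 0.1 and 0.5, no filter, quantile normalization, the 8 libraries of a pair of media alone, a replicate block, subtraction of the fibroblast share, and leaving out each library. The 2i-S library was also set against its parent 2i line alone. Values were not rescaled after subtraction, and those below 0 were set to 0. Tables used pandas 2.3.3 and numpy 2.4.6 under Python 3.11.15, and figures matplotlib 3.10.9.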

Additional observations from a re-analysis of the deposited data

Results flagged for a closer look

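Within groups of 4 libraries, 37 gene and group combinations were screened for a library far from the other 3 (gap over range above 0.829), which chance alone flags in about 1 in 20. Cyr61 in serum XX line 46 of the B6 cross stood at 163.1 RPKM, against 102.8 to 110.6 RPKM in the other serum lines. Ankrd1 in 2i XY line 20 of the MSM cross stood at 1.63 RPKM, against 0 to 0.0312 RPKM in the other 2i lines.

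In the B6 cross the 2i against serum effect was unequal in the sexes (XX minus XY), by 2.35 for Cyr61, 1.54 for Ctgf and 1.94 for Lats2 on the log2 scale. It also differed between the crosses, by 2.63 for Cyr61, 3.35 for Ctgf, 1.07 for Amotl1, 1.26 for Amotl2 and 4.46 for Axl in MSM minus B6 terms. The crosses cannot be told apart from when their libraries were made or how they were processed. For Ankrd1, listed at 0 in all B6 2i lines, the difference between the crosses had an adjusted p of 2.54e-04 and no fold. Ankrd1 passed the filter on low values only through B6 serum, so its direction was set in advance. The fibroblast share was 0.598% and 1.85% in the S lines of the MSM cross and 8.34% to 13.4% in the B6 serum lines, and with that share subtracted the differences were 2.48 for Cyr61, 3.53 for Ctgf and 2.30 for Axl.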

How the results depend on the processing

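Under the alternatives run, the calls of all 8 genes against serum in a2i, t2i and 2i, of Cyr61 and Ctgf in a2i and t2i against 2i, and of 5 genes in XX against XY held with each library left out. Neither pseudocount, filter nor quantile normalization ended a call of Cyr61 or Ctgf.

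Subtracting the fibroblast share turned Lats2 in 2i against serum to 0.996 (0.0919 at the lower and 1.71 at the upper quartile), in t2i to 0.27 (0.96 at the upper quartile) and in a2i to 0.34 (1.04), and turned Axl in a2i to 0.12 at the upper quartile, where 5 genes were called in 2i. It also turned XX against XY in the B6 cross for Axl (0.00393) and Lats2 (-0.0126), and in the MSM cross for Axl (0.70) and Lats2 (0.0514). In 2i against S it turned Ctgf (0.55), Ankrd1 (0.17, and 0.0892 under quantile normalization) and Axl (1.19), and in 2i-S against 2i it turned Ankrd1 (-0.13) and Axl (-1.54). Subtraction gave 1 call in serum between the sexes, 1 in 2i against S, 3 in the cross difference and 1 in 2i between crosses.

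Same-numbered t2i and 2i lines did not deviate together (correlation -0.254 for XX 3 and 0.00226 for XY 2 and 6). With 2 lines per group, the values for XY 2 and XY 6 are the same number by construction. These correlations therefore cannot settle whether the numbers pair the lines. With a replicate block t2i against 2i gave 0 calls, at -1.18 for Cyr61 (adjusted p = 0.12) and -1.01 for Ctgf (adjusted p = 0.14), and Amotl1 was 0.0055.

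With 1 library left out, calls ranged from 3 to 5 in a2i and 2 to 4 in t2i between the sexes, 0 to 1 in serum, 2i against S and 2i-S against 2i, 3 to 7 in the cross difference, 0 to 2 in 2i between crosses and 0 to 2 for its sex difference. Differences that changed sign spanned, in t2i against 2i, -0.35 to 0.0177 for Ajuba, and in a2i against t2i -0.23 to 0.10 for Amotl2, -0.29 to 0.41 for Axl and -0.066 to 0.21 for Lats2. Between the sexes they spanned -0.21 to 0.15 for Axl in the B6 cross, and in serum -0.0315 to 0.61 for Cyr61, -0.17 to 0.30 for Ctgf and -0.28 to 0.62 for Ankrd1. In the MSM cross they spanned -0.37 to 0.32 for Cyr61, -0.87 to 0.17 for Ctgf, -0.68 to 0.14 for Ankrd1, -0.22 to 0.28 for Ajuba, -0.42 to 0.17 for Axl and -0.39 to 0.18 for Lats2. In 2i against S they spanned -0.42 to 0.36 for Ctgf, -0.53 to 0.44 for Ankrd1, -0.13 to 0.21 for Amotl1 and -1.02 to 0.10 for Axl, and in 2i-S against 2i -0.32 to 0.0241 for Amotl1. Ajuba in the cross difference spanned -0.23 to 0.15, and Amotl1 in 2i between crosses -0.17 to 0.0721. The cause of these changes was not tested. The S, 2i-S and 2i MEF groups hold 1 or 2 libraries and limit precision.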
